A study of Homo sapiens with 20 samples.

Results

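Expression of 10 genes of the cornified envelope and its surroundings was followed in MDA-MB-468 breast cancer cells during EGF-treatment. The genes were SPRR1A, SPRR1B, SPRR2A, SPRR2D, SPRR3, IVL, TGM1, CNFN, A2ML1 and EVPL, out of 60271 genes in the deposited table. They were chosen by gene name, by a rule written with their measured levels over these same libraries known. Their changes against the control are therefore given as a description, with no p value. Of the 10 genes, 9 passed the filter on low counts, as did 16522 genes in all. SPRR1A did not pass it.

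MDA-MB-468 is a triple-negative human breast cancer line with elevated EGFR. The study used EGF to induce epithelial-mesenchymal transition (EMT). Control cells received no EGF, and treated cells received 50 ng/mL for 12 h, 24 h, 48 h or 72 h. There were 4 biological replicates in each of the 5 groups, and 1 library was made from each. Every group was the same line, bought from a cell bank and neither authenticated nor tested for mycoplasma after delivery, and every group was moved to medium without serum before the EGF-treatment. For the RNA-seq cultures, the methods do not say whether the control cells were harvested together with the treated ones, so time in culture and EGF cannot be told apart from these data.

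The cornified envelope is the protein shell that forms beneath the plasma membrane of keratinocytes during their terminal differentiation. Its first scaffold holds envoplakin (EVPL) and involucrin (IVL), and small proline-rich proteins (SPRR) and other precursors are added to it. Transglutaminases such as TGM1 join these proteins by covalent bonds, and lipids made by the keratinocyte are attached to the outer face. Cornifelin (CNFN) is a further component of the envelope. A2ML1 is a secreted protease inhibitor of the alpha-2-macroglobulin family that is made in the upper epidermis. IVL and the SPRR genes lie side by side in the epidermal differentiation complex on chromosome 1.

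Promoter sequences are shown because 6 of the 10 genes are neighbors. Of these, the 5 with a promoter window share a short letter pattern in front of their start sites. RefSeq windows (GRCh38.p14) of 300 bases ran from 250 bases before to 50 bases after a start site. They were found for 7 of the genes, in 8 windows, with 2 windows for A2ML1. SPRR2D, TGM1 and EVPL had none, so their promoters were not searched. The 200 bases before the start are printed 5′ to 3′ on the strand of the gene. Capitals mark TGANTCA, a pattern bound by AP-1, and TATAAA, the TATA box. The windows are chr1:152908346-152908545 for IVL, chr1:152983881-152984080 for SPRR1A, chr1:153001549-153001748 for SPRR3 and chr1:153031003-153031202 for SPRR1B, all on the plus strand, and chr1:153057513-153057712 on the minus strand for SPRR2A.
IVL: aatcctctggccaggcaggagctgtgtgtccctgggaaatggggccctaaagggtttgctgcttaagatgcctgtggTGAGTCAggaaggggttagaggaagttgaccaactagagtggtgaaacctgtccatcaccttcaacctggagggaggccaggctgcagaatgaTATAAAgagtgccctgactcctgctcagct
SPRR1A: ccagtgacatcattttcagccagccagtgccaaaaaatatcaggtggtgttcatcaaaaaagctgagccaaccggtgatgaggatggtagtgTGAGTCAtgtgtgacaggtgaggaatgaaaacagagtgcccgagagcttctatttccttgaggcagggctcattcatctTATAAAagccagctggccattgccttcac
SPRR3: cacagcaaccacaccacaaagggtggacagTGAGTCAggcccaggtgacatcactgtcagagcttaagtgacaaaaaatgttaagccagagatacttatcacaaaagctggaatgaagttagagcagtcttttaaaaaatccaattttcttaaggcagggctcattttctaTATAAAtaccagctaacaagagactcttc
SPRR1B: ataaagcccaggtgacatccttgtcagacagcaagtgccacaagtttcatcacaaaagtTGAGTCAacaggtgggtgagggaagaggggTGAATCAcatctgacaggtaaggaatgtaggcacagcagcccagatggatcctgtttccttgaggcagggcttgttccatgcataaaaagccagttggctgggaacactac
SPRR2A: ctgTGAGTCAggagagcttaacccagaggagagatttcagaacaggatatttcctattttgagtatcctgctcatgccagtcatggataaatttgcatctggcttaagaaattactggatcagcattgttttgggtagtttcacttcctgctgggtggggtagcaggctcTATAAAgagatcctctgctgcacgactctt
TGANTCA was present in all 5 of these windows and in none of the 3 windows of A2ML1 and CNFN. The pattern lay 123 bases before the start in IVL, 108 in SPRR1A, 170 in SPRR3 and 197 in SPRR2A. SPRR1B held it at 2 places, 141 and 111 bases before the start. Of the 35116 promoter windows of this length, 7.71% held TGANTCA on at least 1 strand. TATAAA was found between 29 and 31 bases before the start in IVL, SPRR1A, SPRR3, SPRR2A and 1 of the 2 A2ML1 windows, and 11.5% of all windows held it. GGAAGT, a core of ETS sites, was in the windows of IVL, SPRR3 and SPRR2A and in 22.8% of all windows. The octamer ATGCAAAT was in the SPRR2A window only and in 1.77% of all windows. The Grainyhead-like pattern AACNNGTT was in none of the 8 windows and in 3.52% of all windows. Both strands were searched, and no match overlapped another of these patterns in the printed stretches. A match describes these letters and not the binding of a factor.

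Depth was 15611961 to 25856953 counts per library, with a median of 20398047 over the 20 libraries. Levels are CPM after TMM normalization, where CPM is the count scaled to a common library size, given as mean ± SD over 4 libraries unless stated otherwise. The epithelial markers CDH1, EPCAM, KRT8 and KRT18 were present at mean levels of 127 to 788 CPM in the control, and EGFR at 3474 CPM. PGR had no count in any library, and the control means of ESR1 and ERBB2 were 5.03 and 21.5 CPM. Of 11 markers of immune, endothelial, stromal and pigment cells, 3 passed the filter, namely COL1A1, CD14 and PECAM1. MS4A1 had no count, and CD3E, CDH5 and COL3A1 had at most 3 counts in any library. The summed level of the 11 markers was 10.6 to 13.8 CPM in the control libraries and 21.3 to 23.3 CPM at 72 h. Mitochondrial genes held 10.9% of counts in the control and 15.0% at 72 h, as group means. Both were higher at 72 h than in the control, and their part in the results was not tested.

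The SPRR genes encode small cross-linked precursors of the envelope, and 4 of the 5 were low in the control and higher at every EGF time. SPRR1B was at 0.603, 0.462, 0.512 and 0.529 CPM in the 4 control libraries. It was at 25.1, 25, 22.6 and 24.0 CPM at 12 h and at 46.6, 61.2, 59.7 and 60.1 CPM at 24 h. At 48 h it was at 47.0, 50.8, 53.3 and 50.4 CPM, and at 72 h at 116, 108, 108 and 112 CPM. All EGF libraries lay above all controls, the 24 and 48 h libraries overlapped, and the 72 h libraries lay above all others. The fold of the group means against the control was 45.9, 108, 95.6 and 211 at 12, 24, 48 and 72 h. The fitted log2 fold change at 72 h was 7.71 ± 0.122 (SE). SPRR1B stood at 21.8% of its 72 h level at 12 h and at 51.3% at 24 h. In these bulk cultures, more cells with the transcript and more transcript per cell cannot be told apart.

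SPRR3, the precursor of this group known from the lining of the mouth and esophagus, had the largest log2 fold change at 72 h of the 9 genes tested. Its control libraries were at 1.00, 0.547, 0.768 and 0.625 CPM. At 12 h they were at 13.4, 13.3, 11 and 10.9 CPM, and at 24 h at 25.9, 32.6, 33.4 and 39.8 CPM. The 48 h libraries were at 50.6, 45.6, 52.7 and 45.6 CPM and the 72 h libraries at 286, 258, 242 and 275 CPM. No 2 neighboring groups overlapped, so the order of the levels was the order of the times. Means were 0.736 CPM in the control, 12.2, 32.9, 48.6 and 265 at 12, 24, 48 and 72 h, which is 360-fold at 72 h (log2 fold change 8.50 ± 0.161 SE). At 12 h the level was 4.59% of that at 72 h and at 48 h 18.3%, and the step from 48 to 72 h was 5.45-fold. By log2 fold change at 72 h, SPRR3 ranked 35 of the 16522 genes tested.

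SPRR2A and SPRR2D, a pair of near neighbors on the minus strand, had their largest steps between the control and 12 h and between 48 and 72 h. SPRR2A was at 0.502, 0.252, 0.512 and 0.288 CPM in the control and at 5.71, 5.77, 6.02 and 5.16 CPM at 12 h. The 24 h libraries had 5.93, 8.93, 11.2 and 10.3 CPM, the 48 h libraries 6.15, 4.25, 7.26 and 7.16 CPM, and the 72 h libraries 84.6, 76.7, 69.3 and 65.7 CPM. The 12 and 48 h libraries overlapped each other, as did the 24 and 48 h libraries, and the 72 h libraries lay far above all of them. The fold against the control was 14.6, 23.4, 16 and 191 at 12, 24, 48 and 72 h, and the fold of 72 against 48 h was 11.9. SPRR2D was at 0.201, 0.0420, 0.0854 and 0.192 CPM in the control, which is 1 to 4 counts per library. It was at 1.97, 1.69, 1.88 and 1.72 CPM at 12 h and at 5.59, 5.09, 5.64 and 5.61 CPM at 24 h. It was at 3.60, 3.81, 3.99 and 4.44 CPM at 48 h and at 40.5, 35.7, 34.9 and 34.9 CPM at 72 h. No 2 neighboring groups of SPRR2D overlapped, and its 48 h level was 72.3% of that at 24 h. The fold against the control was 13.9, 42.1, 30.4 and 280 at 12, 24, 48 and 72 h, and the fold of 72 against 48 h was 9.21. At 48 h SPRR2A stood at 8.38% and SPRR2D at 10.9% of their own 72 h levels, while SPRR1B stood at 45.3%.

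Reads of the SPRR2 genes can be shared. Of the distinct 75-base stretches of the SPRR2A transcript in GENCODE 29, 23.9% also occur in transcripts of other genes, mainly SPRR2B, SPRR2E and SPRR2D, and 8.72% of those of SPRR2D do. The read length was 75 bases, and how such reads were counted is not given in the sources used here, so the division between SPRR2A and SPRR2D is uncertain. SPRR2B had no count in any library and SPRR2E at most 8. SPRR1A, SPRR1B, SPRR3, IVL, TGM1, CNFN and A2ML1 shared no 75-base stretch with another gene, and EVPL shared 0.68% with EVPLL.

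SPRR1A, a close relative of SPRR1B, had 0 counts in all 4 control libraries. It had 3, 7, 3 and 1 counts at 12 h, 1, 6, 0 and 5 at 24 h, and 7, 4, 5 and 4 at 48 h. The 72 h libraries had 27, 8, 16 and 14 counts, or 0.821 ± 0.253 CPM. Against 3 counts in each control library, a mean of 0.137 CPM, the level at 72 h was at least 5.98-fold higher. The GENCODE 29 model of SPRR1A is 1 exon of 270 bases (chr1:152985231-152985500), and the RefSeq start lies upstream of it, at position 152984081. Whether counts from the first exon are missed was not tested.

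**Figure D1:**
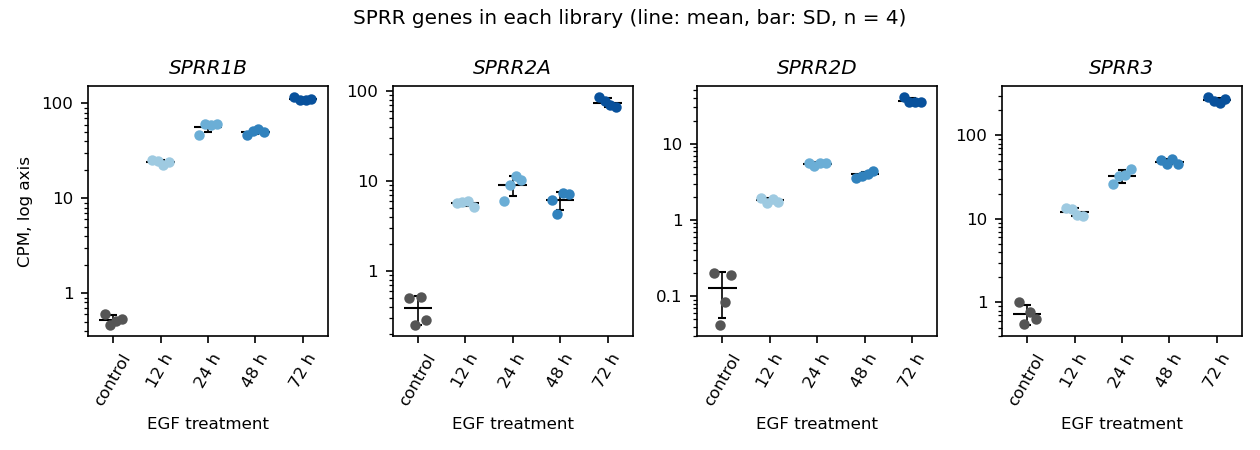
Levels of SPRR1B, SPRR2A, SPRR2D and SPRR3 in each of the 20 libraries, in CPM on a log axis, by time of EGF-treatment. Points are libraries, lines are means and bars are SD over 4 libraries. SPRR1B is near 24.2 CPM at 12 h and 111 CPM at 72 h, while SPRR2A and SPRR2D stay below 12 CPM until 48 h and reach 74.1 and 36.5 CPM at 72 h.

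The summed level of the 5 SPRR genes was 1.78 ± 0.424 CPM in the control, 44.0 ± 2.6, 105 ± 14.1, 109 ± 5.57 and 488 ± 30.3 at 12, 24, 48 and 72 h. The makeup of this sum changed over time. These are shares of counts and not per length, so they are compared between times and not between genes. SPRR1B made up 30.3 ± 4.4% of the sum in the control, 55.0 ± 1.58%, 54.5 ± 2.07%, 46.1 ± 2.07% and 22.8 ± 0.758% at 12, 24, 48 and 72 h. The share of SPRR3 was 41.1 ± 2.21% in the control, 27.6 ± 1.58% at 12 h and 54.4 ± 1.35% at 72 h. The ratio of SPRR3 to SPRR1B was 0.455 to 0.535 in the 12 h libraries, 0.899 to 1.08 at 48 h and 2.24 to 2.47 at 72 h, without overlap. SPRR2A made up 12.9 ± 1.03% of the sum at 12 h, 5.65 ± 1.12% at 48 h and 15.2 ± 1.21% at 72 h. The ratio of SPRR2D to SPRR2A was 0.292 to 0.345 at 12 h and 0.465 to 0.532 at 72 h, and its 24 h libraries ranged from 0.503 to 0.942.

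**Figure D2:**
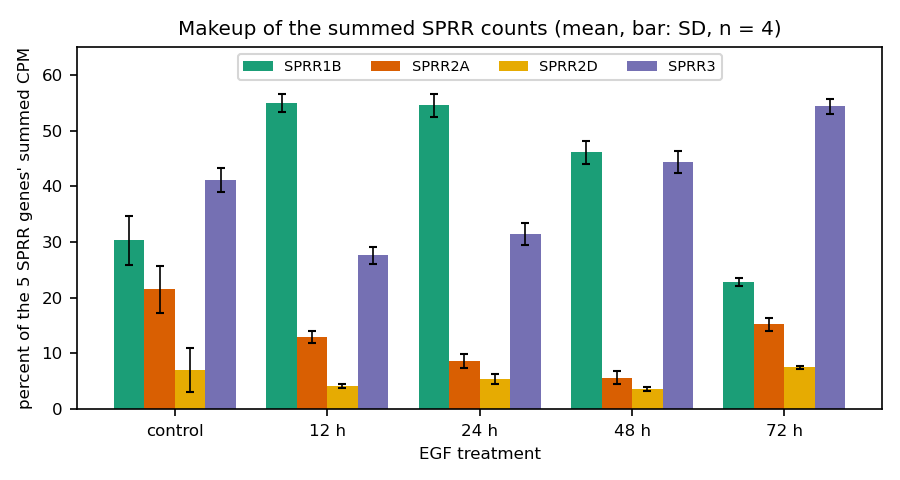
Share of SPRR1B, SPRR2A, SPRR2D and SPRR3 in the summed CPM of the 5 SPRR genes, in percent, in the control and at each EGF time. Bars are means and error bars SD over 4 libraries, and SPRR1A, under 0.5% in each group, is not drawn. The share of SPRR1B is 55.0% at 12 h and 22.8% at 72 h, and that of SPRR3 is 27.6% and 54.4%.

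The 5 SPRR genes and IVL lie within 148993 bases of chromosome 1 (chr1:152908545-153057537, GRCh38), and no exon of any of the 10 genes overlaps an exon of another gene in GENCODE 29. In order along the chromosome they are IVL, SPRR1A, SPRR3, SPRR1B, SPRR2D and SPRR2A. Between them lie 5 other genes of the table, looked up after the values of the 10 genes were known. Of these, 4 had 10 counts or fewer in every library, SPRR4 among them, and only SPRR5 passed the filter. SPRR5 (chr1:152947154-152949258) had a mean of 0.065 CPM in the control, 0.0394, 0.199, 1.20 and 0.444 at 12, 24, 48 and 72 h. No control library had more than 3 counts of it, so its folds are bounds against 3 counts per control library. It rose at 24 h (at least 1.45-fold higher, adjusted p = 0.0361 in edgeR's quasi-likelihood test), at 48 h (at least 8.76-fold, adjusted p = 1.48e-07) and at 72 h (at least 3.23-fold, adjusted p = 0.000132). At 12 h it did not pass (adjusted p = 0.472), and its mean was under that floor. SPRR5 never had more than 30 counts in a library, and its span overlaps that of LINC01527 on the other strand. Its highest level was at 48 h, whereas the 6 members in this stretch had theirs at 72 h.

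**Figure D3:**
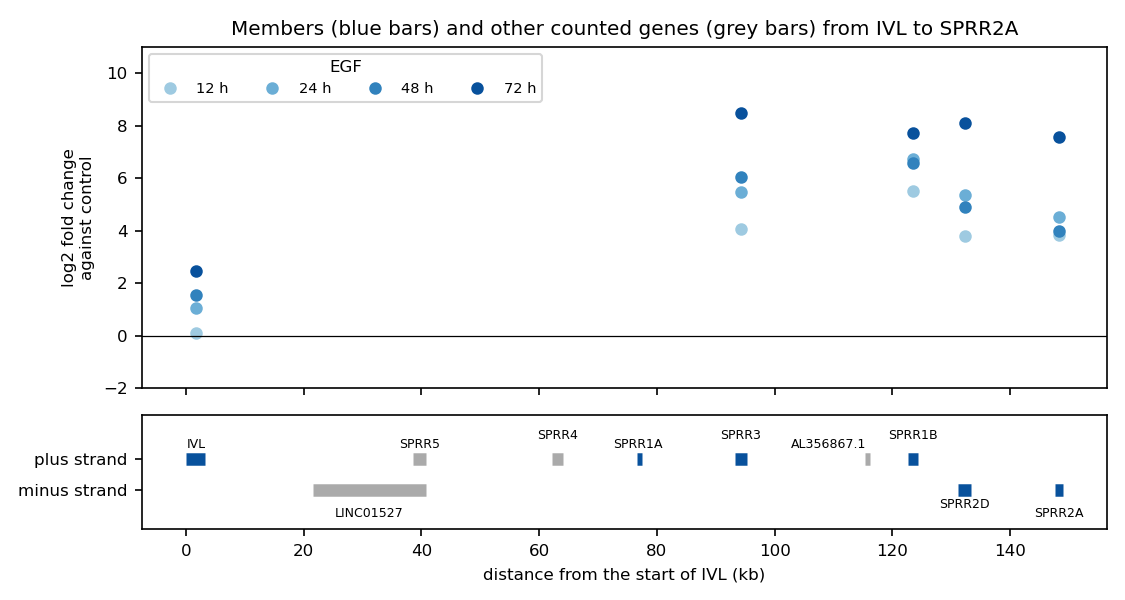
Log2 fold changes against the control (upper panel, edgeR) and gene positions (lower panel) from IVL to SPRR2A, by distance from the start of IVL in kb. Blue bars are the 6 members there and grey bars other genes with a count, and genes without points did not pass the filter or, for SPRR5, had 3 counts or fewer in every control library. At 72 h SPRR3, SPRR1B, SPRR2D and SPRR2A lie between 7.56 and 8.50 and IVL is at 2.45.

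A2ML1, the protease inhibitor, was low in the control and higher in every library at each EGF time. Its libraries were at 0.904, 0.925, 0.939 and 0.865 CPM in the control and at 5.46, 5.67, 4.70 and 5.26 CPM at 12 h. The 24 h libraries had 23.1, 26, 25.7 and 23.3 CPM, the 48 h libraries 19.4, 15.7, 23.9 and 19.4 CPM, and the 72 h libraries 45.3, 45.1, 46.7 and 41.1 CPM. The 24 and 48 h libraries overlapped, and all other neighboring groups were apart. The fold against the control was 5.8, 27.0, 21.6 and 49.0 at 12, 24, 48 and 72 h (log2 fold change at 72 h 5.60 ± 0.133 SE). The ratio of A2ML1 to SPRR1B was 1.74 ± 0.22 in controls and 0.218 ± 0.00815, 0.435 ± 0.0445, 0.389 ± 0.0591 and 0.402 ± 0.0283 at 12, 24, 48 and 72 h. From 24 h on the libraries of this ratio overlapped, and those at 12 h lay below all of them. A2ML1 lies on chromosome 12 (chr12:8822472-8887001), away from the SPRR genes.

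IVL encodes involucrin, an early scaffold protein of the envelope. Its libraries were at 1.46, 1.64, 1.75 and 1.59 CPM in the control and at 1.92, 2.07, 1.44 and 1.53 CPM at 12 h, and these groups overlapped. The 24 h libraries had 4.25, 2.71, 2.76 and 3.61 CPM, the 48 h libraries 5.54, 4.25, 3.87 and 5.39 CPM, and the 72 h libraries 8.75, 9.04, 8.82 and 8.81 CPM. All libraries from 24 h on lay above all controls, and the 72 h libraries lay above all others. The fold against the control was 1.08, 2.07, 2.96 and 5.51 at 12, 24, 48 and 72 h (log2 fold changes 0.11 ± 0.181, 1.06 ± 0.168, 1.55 ± 0.162 and 2.45 ± 0.159 SE). IVL thus differed from SPRR1B, SPRR2A, SPRR2D, SPRR3 and A2ML1 in that no difference beyond the spread was seen at 12 h, and its control level was 18.2% of that at 72 h.

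TGM1, the enzyme that links envelope proteins in keratinocytes, was low in every group. The control libraries ranged from 0.811 to 1.66 CPM and those at 12 h from 0.939 to 1.67 CPM, which overlapped. The 24 h libraries lay between 0.445 and 0.634 CPM and the 48 h libraries between 0.453 and 0.720 CPM, all below all controls. These levels were 40.7% and 45.3% of the control mean (log2 fold changes -1.27 ± 0.276 and -1.13 ± 0.266 SE). At 72 h the range was 0.626 to 0.925 CPM, which overlapped the control, and the mean was 61.2% of it. Counts of TGM1 were 7 to 33 per library, so its values carry larger counting error than those of the SPRR genes at 72 h.

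CNFN was at 15.8, 17.0, 9.73 and 13.1 CPM in the control libraries, and all libraries at 12 h (7.84 to 9.40 CPM) and 24 h (4.88 to 7.41 CPM) were below them. The means were 60.9% of the control at 12 h and 42.5% at 24 h (log2 fold changes -0.71 ± 0.178 and -1.23 ± 0.185 SE). At 48 h the libraries ranged from 7.67 to 14.3 CPM and at 72 h from 6.94 to 9.83 CPM, and both groups overlapped the control. EVPL, the plakin that anchors the envelope to the keratin network, was at 6.79 to 10.3 CPM in the control and at 10.7 to 12.7 CPM at 12 h, where all 4 libraries were above all controls. That difference was 1.38-fold (log2 fold change 0.46 ± 0.152 SE), and it passed the threshold under TMM but not under scaling by library size or by upper quartiles, with a lowest value of 0.18 among these scalings. At 24, 48 and 72 h the EVPL libraries overlapped the control, with means of 9.77, 9.32 and 6.71 CPM against 8.65 CPM.

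**Figure D4:**
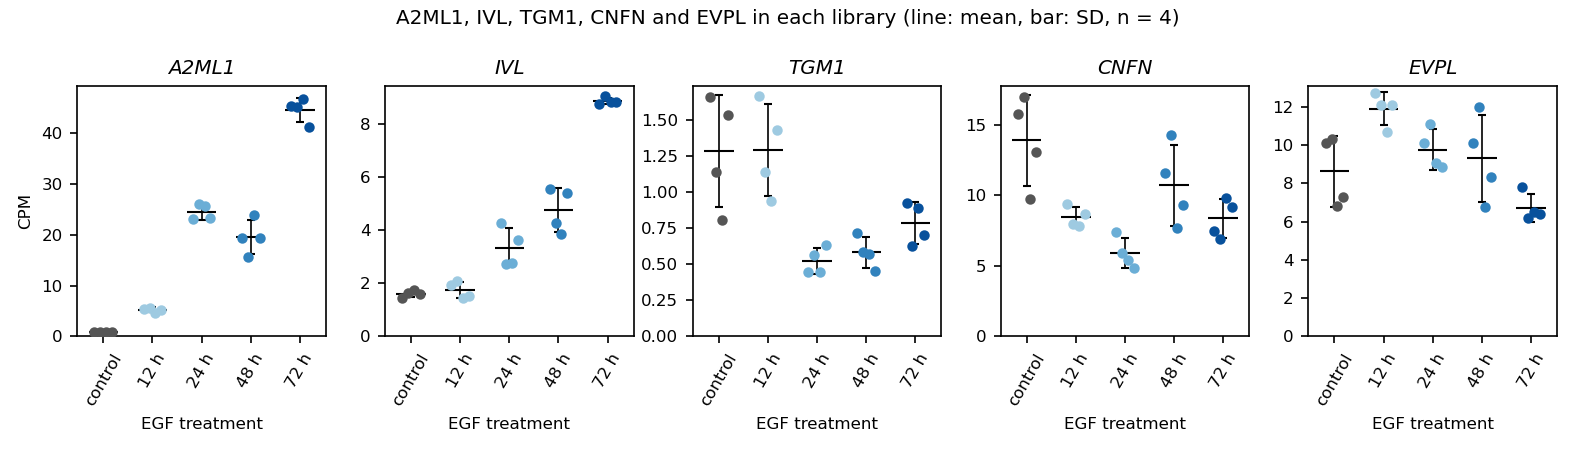
Levels of A2ML1, IVL, TGM1, CNFN and EVPL in each library, in CPM on axes that start at 0, by time of EGF-treatment. Points are libraries, lines are means and bars are SD over 4 libraries. The mean of A2ML1 is 0.908 CPM without EGF and 44.5 CPM at 72 h and that of IVL 1.61 and 8.86 CPM, while TGM1, CNFN and EVPL have their lowest means at 24, 24 and 72 h.

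At an adjusted p under 0.05 in edgeR, adjusted by Benjamini-Hochberg over the 16522 genes, 6 of the 9 members tested were called higher and 1 lower at 12 h. The calls were 6 higher and 2 lower at 24 h, 6 and 1 at 48 h, and 6 and 2 at 72 h. SPRR1B, SPRR2A, SPRR2D, SPRR3 and A2ML1 were called higher at all 4 times, IVL at 24, 48 and 72 h and EVPL at 12 h. TGM1 was called lower at 24, 48 and 72 h and CNFN at 12, 24 and 72 h. Among all genes tested, 32.9% were called higher and 36.5% lower at 12 h, 29.2% and 29.6% at 24 h, 24.0% and 21.8% at 48 h, and 30.6% and 31.0% at 72 h. Since the members were selected on these contrasts, nothing is read from their counts. The call of TGM1 at 72 h was lost with the DESeq2 Wald test, with no filter beyond 1 count, in a fit of only the 8 libraries compared, and without control replicate 1, control replicate 4, 72 h replicate 2 or 72 h replicate 4. Its log2 fold change there was -0.68, and between -0.85 and -0.54 when each library was left out in turn. The authors' normalized values gave -1.06 for it. With scaling by library size only, the median log2 fold change of the 16522 genes shifted from -0.054 to -0.337 at 12 h and from -0.007 to -0.150 at 24 h, and with upper quartiles it was -0.216 at 12 h. Of all calls, 47.4% were higher at 12 h with TMM, against 30.2% with library size only and 37.2% with upper quartiles, and at 24 h 49.6% against 36.3% with library size only. The log2 fold changes of SPRR1B, SPRR2A, SPRR2D, SPRR3 and A2ML1 stayed between 2.24 and 8.55 over the other scalings, filters, designs and the DESeq2 test.

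For each member tested, the genes most like it were sought by Pearson's r of log2 CPM over the 20 libraries, among genes outside these 10 with a mean of at least 1 CPM. These values are descriptions, since all 20 points share the same 5 groups and the same library sizes. SPRR1B was closest to SRPX2 (r = 0.994) and ECM1 (0.993), which encodes an extracellular matrix protein of the skin. SPRR2A and SPRR2D were both closest to FN1, fibronectin (0.992 and 0.988). The means of FN1 were 17.8 CPM without EGF, 95.3 at 24 h, 67.2 at 48 h and 256 at 72 h, and so it too was lower at 48 h than at 24 h. The next nearest were MAP1LC3B for SPRR2A (0.980) and PRR9, a gene of the same complex, for SPRR2D (0.985). SPRR3 was closest to LINC00973 (0.990) and HEPHL1 (0.989), A2ML1 to CLIP4 (0.994) and CYP4F3 (0.992), and IVL to TRPM8 (0.980) and SLAMF7 (0.975). For TGM1 they were NECTIN4 (0.895) and SLC46A1 (0.891), and for CNFN they were TAF10 (0.950) and HEXA (0.947). EVPL was closest to RPL13 (0.942) and RPS16 (0.939), genes of ribosomal proteins.

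Other genes of the envelope and of terminal differentiation were then examined, from a list of 54. This list and those that follow were chosen with earlier results of these data known. Their shares and adjusted p-values are therefore descriptions and no independent support for the members. Of these, 29 had a count and 15 passed the filter. LORICRIN, FLG, HRNR, CRNN, KPRP, PPL and all LCE genes in the list were at 0 counts in all 20 libraries. A count of 0, as for PPL, may mean no transcript or reads that were not assigned to the gene, which was not tested. Of the 15 genes tested, 8 rose and 3 fell at 12 h, and 10 rose and 3 fell at 24 h. At 48 h 10 rose and 2 fell, and at 72 h 11 rose and 2 fell. The shares that rose and fell were 53.3% and 20%, 66.7% and 20%, 66.7% and 13.3%, and 73.3% and 13.3%. Over all genes tested they were 32.9% and 36.5%, 29.2% and 29.6%, 24.0% and 21.8%, and 30.6% and 31.0%. With library size only, 8 rose and 5 fell at 12 h. Genes with few control counts, such as PRR9 and TGM5, passed the filter through EGF libraries and could hardly fall. The share of rises is thus partly set by the filter. With at least 10 counts in every library, 8 genes were tested. Of these, 4 rose and 3 fell at 12 h, and 5 rose and 2 fell at 72 h. The median log2 fold change of the list was 1.28 at 12 h and 1.46 at 72 h, against -0.05 and -0.01 over all genes tested. At 24 and 48 h it was 1.49 and 1.42, or 1.31 and 0.96 with the 2 genes without control counts above 3 held at their bound.

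PRR9, a proline-rich gene of the same complex (chr1:153217584-153219317), had the largest log2 fold change of this list at 24, 48 and 72 h. It was at 0 to 0.192 CPM in the control, 0.763 to 1.27 at 12 h, 2.92 to 6.28 at 24 h, 2.40 to 3.10 at 48 h and 41.8 to 56.5 CPM at 72 h. Its 24 and 48 h libraries overlapped, and the 72 h libraries lay far above both, as for SPRR2A. The log2 fold change of PRR9 at 72 h was 9.60 ± 0.321 SE (adjusted p = 1.76e-17), over controls of 0 to 4 counts. TGM5, a further epidermal transglutaminase, rose at all 4 times. It had 0.102 ± 0.0859 CPM without EGF, 1.10 ± 0.219 at 12 h and 10.3 ± 0.83 CPM at 72 h (72 h log2 fold change 6.57 ± 0.294 SE, adjusted p = 2.7e-15). Its controls had 0 to 5 counts. TGM5 thus rose at 24 and 48 h, where TGM1 was lower than in the control. CDSN, which encodes the adhesion protein corneodesmosin, rose at all 4 times and reached 3.87 ± 0.84 CPM at 72 h, against 0.354 ± 0.0485 in controls (3.44 on the log2 scale, adjusted p = 1.36e-12). CSTA, the protease inhibitor cystatin A, did not pass at 12 h (log2 fold change -0.38, adjusted p = 0.304) and rose to 2.81 ± 0.375 CPM at 48 h (2.40, adjusted p = 5.24e-09) and 5.06 ± 0.395 CPM at 72 h (3.25, adjusted p = 6.25e-12). Among the falls were CASP14, a protease of the upper epidermis, which had 1397 ± 92.3 CPM at 24 h against 2282 ± 110 in controls (-0.71 on the log2 scale, adjusted p = 6.84e-09), and KRT4, a keratin of mucosal epithelium, at 24, 48 and 72 h (log2 fold changes -1.69, -0.98 and -0.51). KRT13, a further keratin of the list, went the other way and was called higher at 12, 24 and 72 h. Its means were 0.0597 CPM in controls and 1.78, 0.327, 0.18 and 0.475 CPM at 12, 24, 48 and 72 h. CASP14, KRT4 and KRT13 were named after their values were seen.

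Genes listed for the lipid envelope, mostly its enzymes and transporters, such as those that build very long chain ceramides, numbered 20, of which 14 were tested. The list also held ST14 and TMEM45A. At 12 h 9 rose and 4 fell, at 24 h 7 and 2, at 48 h 5 and 4, and at 72 h 8 and 3. As shares these are 64.3% and 28.6%, 50% and 14.3%, 35.7% and 28.6%, and 57.1% and 21.4%. Over all genes tested they were 32.9% and 36.5%, 29.2% and 29.6%, 24.0% and 21.8%, and 30.6% and 31.0%. The medians of the list were 0.76, 0.20, 0.13 and 0.49 on the log2 scale. ALOXE3, an epidermal lipoxygenase, rose at all 4 times and had 0.213 ± 0.123 CPM in controls, 6.79 ± 0.945 at 12 h and 10.1 ± 0.626 at 72 h (72 h log2 fold change 5.51 ± 0.22 SE, adjusted p = 3.25e-16). Most of its change was thus present at 12 h. ELOVL4, which elongates very long chain fatty acids, averaged 10.8 CPM in controls. It had 69.2 ± 5.07 CPM at 12 h (2.68, adjusted p = 1.04e-12) and 73.5 ± 12.7 CPM at 24 h (2.76, adjusted p = 9.61e-13). The libraries of these 2 times overlapped. ELOVL4 was lower at the later times, with 23.3 ± 4.95 CPM at 48 h (1.11, adjusted p = 4.73e-06) and 45.8 ± 4.65 CPM at 72 h (2.08, adjusted p = 9.93e-11). UGCG, which makes glucosylceramide, rose 3.04-fold at 12 h, and TMEM45A rose 2.1-fold at 48 h and 2.83-fold at 72 h.

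Transcriptional regulators of terminal differentiation went both ways. Of the 20 tested out of 21, 10 rose and 8 fell at 12 h, and 8 rose and 9 fell at each of 24, 48 and 72 h. That is 50% and 40% at 12 h, and 40% and 45% at each later time. Over all genes tested the shares were 32.9% and 36.5%, 29.2% and 29.6%, 24.0% and 21.8%, and 30.6% and 31.0%. The medians of the list lay between -0.08 and 0.15. With library size only, 7 rose and 9 fell at 12 h and 5 rose and 9 fell at 24 h. PRDM1, a repressor active in the granular layer of the epidermis, rose at all 4 times. Controls had 1.61 ± 0.355 CPM and 12 h libraries 52.9 ± 5.35 CPM (12 h log2 fold change 5.02 ± 0.219 SE, adjusted p = 1.45e-14). PRDM1 had 11 ± 1.76 CPM at 48 h and 34.3 ± 5.08 CPM at 72 h. HOPX fell at 12 h (-1.28 on the log2 scale) and rose 7.96-fold at 72 h, to 23.6 ± 3.16 CPM. CEBPA fell at all 4 times, with 8.51 ± 0.476 CPM in controls, 2.68 ± 0.145 at 12 h and 1.73 ± 0.153 at 72 h (-2.30 on the log2 scale, adjusted p = 9.68e-11). GRHL3, a Grainyhead-like factor of the skin barrier, fell to 3.72 ± 0.233 CPM at 48 h from 18.7 ± 2.55 CPM (-2.33, adjusted p = 1.98e-13).

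The last list held 22 relatives of A2ML1 and epithelial protease inhibitors, of which 16 were tested. It had 8 rises and 3 falls at 12 h, 6 and 7 at 24 h, 8 and 4 at 48 h, and 9 and 5 at 72 h. As shares these are 50% and 18.8%, 37.5% and 43.8%, 50% and 25%, and 56.2% and 31.2%. Over all genes tested they were 32.9% and 36.5%, 29.2% and 29.6%, 24.0% and 21.8%, and 30.6% and 31.0%. With library size only, 5 rose and 4 fell at 12 h, and with upper quartiles 6 and 4. Here too, genes with few control counts, such as SPINK1, passed the filter through EGF libraries. With at least 10 counts in every library, 10 genes were tested. Of these, 6 rose and 4 fell at 12 h, and 5 rose and 3 fell at 72 h. The medians were 0.22, -0.21, 0.25 and 0.63, and 0.00 at 12 h and 0.11 at 48 h with the 3 genes at their bound. CST6, the cysteine protease inhibitor cystatin M/E, rose at all 4 times. It had 0.842 ± 0.233 CPM in controls, 21 ± 1.95 at 12 h (log2 fold change 4.65 ± 0.177 SE, adjusted p = 1.3e-16) and 10.9 ± 1.88 at 72 h. SPINK1, a serine protease inhibitor, had 0 or 1 counts per control library and rose at all 4 times. Its mean was 0.487 CPM at 24 h, 1.59 CPM at 48 h and 12.9 CPM at 72 h, which is at least 3.55-fold, 11.6-fold and 93.7-fold higher than 3 counts per control library. At 12 h its mean of 0.116 CPM was under that floor, and no fold is given. Among relatives of A2ML1 the direction was mixed. CPAMD8 fell at all 4 times, with 26.1 ± 4 CPM in controls, 5.36 ± 0.82 at 24 h and 3.46 ± 0.716 at 72 h (72 h log2 fold change -2.93 ± 0.162 SE, adjusted p = 1.4e-13), and C5 fell to 2.12 ± 0.486 CPM at 12 h from 7.34 ± 1.38 CPM (-1.79, adjusted p = 5.77e-09). C4A fell at 24 h (-1.59, adjusted p = 0.0173), 48 h (-1.35, adjusted p = 0.0425) and 72 h (-1.44, adjusted p = 0.0251). Its reads may be shared with its near copy C4B, and such sharing was not tested. The 48 h call was lost without control replicate 1, 2 or 4, 12 h replicate 1 or 3, or 48 h replicate 1 or 3 (adjusted p = 0.0509 to 0.112). It was also lost without the filter (adjusted p = 0.0967) and with a replicate block (adjusted p = 0.066). CD109, named after its values were seen, rose at all 4 times and had 827 ± 53.3 CPM at 24 h against 214 ± 23.6 in controls (1.95 on the log2 scale, adjusted p = 1.64e-15).

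**Figure D5:**
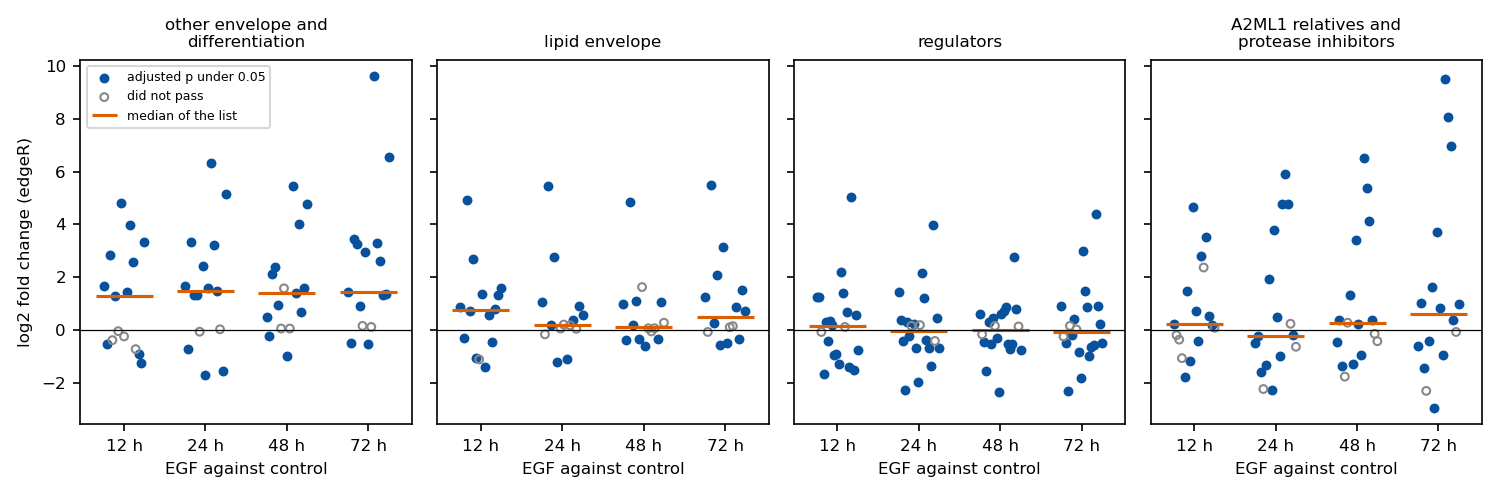
Log2 fold changes against the control (edgeR) of the tested genes of the 4 lists at 12, 24, 48 and 72 h. Filled points passed an adjusted p of 0.05, open points did not, orange lines are the medians of each list, and genes with 3 counts or fewer in every control library are drawn at their fitted value. The medians of the envelope list are 1.28, 1.49, 1.42 and 1.46, and those of the regulators lie between -0.08 and 0.15.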

How the data were processed

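RNA from 20 cultures of MDA-MB-468 cells was made into libraries with the Lexogen Corall mRNA protocol and sequenced by the authors as single-end reads of 75 bases. The authors deposited for 60271 genes a whole-number count per library, not normalized, which was the starting point here. The sources used here do not state how it was made, and the deposited values were handled here like an expected count that is already whole, since the ratio of the authors' normalized value to it varied between genes. They also deposited a normalized value, a score on the scale of counts made in DESeq2, which was used as an alternative only. Their own fold changes and p-values were not used. Per the labels' processing notes the build was hg38, and the aligner and the handling of molecular identifiers are not given in the sources used here, so counts may hold PCR duplicates. All values cover the sampling of these libraries only.

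Counts were analyzed with edgeR 4.0.16 (limma 3.58.1, R 4.3.3). Genes were kept by filterByExpr, libraries were scaled by TMM, and a mean per group was fitted to all 20 libraries. Each EGF time was compared with the same 4 control libraries by the robust quasi-likelihood test. P-values were adjusted by Benjamini-Hochberg over 16522 genes, with a threshold of 0.05. Log2 fold changes used a prior count of 0.125. Where all control libraries had 3 counts or fewer, only a bound on the fold was given, set by 3 counts per library. The procedure was tested on simulated data in which a small share of genes changed, at 12 h only. In these data most genes tested were called at 12 h, so that simulation does not check the scaling used here. The members and gene lists were chosen with earlier results of these data known. From each list, the 3 genes with the largest absolute log2 fold change at each time were named, among those past the threshold with a mean of at least 1 CPM, and for each member the 2 genes with the highest correlation. Of the genes so named, 2 are not reported here. Positions and 75-base stretches came from GENCODE 29 and promoters from RefSeq. The deposited counts may rest on another annotation, which was not checked. Alternatives were scaling by library size, upper quartiles or DESeq2 size factors, the DESeq2 1.42.0 Wald test, no filter or a minimum of 10 counts in all libraries, a fit of the 8 compared libraries alone, a replicate block, a prior count of 2, the authors' normalized values with a pseudocount of 1, and removal of 1 library at a time.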

Additional observations from a re-analysis of the deposited data

Results flagged for a closer look

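In groups of 4 libraries, a value was marked when its gap to the nearest other library, divided by the range of the group, was above Dixon's 95% critical value for 4 values. Chance marks about 1 in 20 groups, and 4 of the 50 groups of the 10 genes were marked. SPRR1A was at 0.388 CPM in 48 h replicate 1, above the other libraries at 0.181 to 0.196 CPM, a difference of few counts. SPRR1B was at 46.6 CPM in 24 h replicate 1, below the others at 59.7 to 61.2 CPM. SPRR2D was at 5.09 CPM in 24 h replicate 2, below the others at 5.59 to 5.64 CPM, and at 40.5 CPM in 72 h replicate 1, above the others at 34.9 to 35.7 CPM. The 3 libraries concerned at 24 and 72 h lay on the same side of all controls as the rest of their groups.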

How the results depend on the processing

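Of the 20 counts of called genes, those that moved by over 1.5 times did so only when at least 10 counts were asked for in every library, which left 6 members and 8 genes of the envelope list in the test. The members called were then 5 at 24 h, 4 at 48 h and 5 at 72 h, against 8, 7 and 8. The other envelope genes called were 7, 6, 5 and 7 at 12, 24, 48 and 72 h, against 11, 13, 12 and 13, and the A2ML1 relatives and protease inhibitors at 72 h were 8 against 14. These counts take rises and falls together. For the envelope list, rises were 4, 4, 4 and 5 against 8, 10, 10 and 11. Its falls were 3, 2, 1 and 2 against 3, 3, 2 and 2, so mostly rises were lost. No log2 fold change of a called member or named gene changed sign under any alternative run. CNFN at 48 h was called lower without control replicate 3 or without 48 h replicate 2, and EVPL at 72 h with scaling by library size, with the replicate block and without control replicate 3 or 4, 48 h replicate 2 or 3, or 72 h replicate 1.

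The labels number the replicates 1 to 4 in each group, and same-numbered libraries of a treated and the control group had correlations of -0.177 to 0.348. At 48 h, replicates 2 and 3 had 0.328 and 0.348, above their highest correlations with another number (0.234 and 0.259). In most other cases a library with another number was closer. The numbers were not taken to pair the cultures, which these values do not settle. With a replicate block, 7, 8, 7 and 9 members were called at 12, 24, 48 and 72 h, against 7, 8, 7 and 8. Among members, a prior count of 2 lowered the log2 fold change of SPRR2D at 72 h from 8.12 to 7.35, and the authors' normalized values gave 7.63. Genes with few control counts, such as SPRR2D, TGM1 and PRR9, are limited by depth.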
